A study of Mus musculus with 6 samples.

Results

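The genes described here are 30 genes of the G2 phase and of mitosis, taken by symbol from the deposited count table of 55334 mouse gene IDs. The list names genes by function and uses no threshold on measured values, but it was drawn up with earlier results of these data known. All 30 genes matched 1 gene ID each, and all 30 were among the 16049 genes that passed the filter on low counts. The cells were GFP-marked Lewis lung carcinoma (LLC) cells, a transplantable mouse lung tumour line, that had received a CRISPR guide. The guide was scrambled in 3 libraries (Scramble) and aimed at Jag2, which encodes a ligand of Notch receptors, in the other 3 (JAG2KO). Both groups were grown as flank tumours in mice until endpoint, dissociated, and sorted as GFP-positive, CD45-negative and DAPI-negative cells before polyA RNA was sequenced. The sources used here do not give the strain or age of the mice, whether JAG2KO was 1 clone or a pool, or whether mice were pooled or shared between libraries. P-values here therefore measure the spread among these libraries only, which may be technical.

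Cells that have copied their DNA pass through G2 and enter mitosis when cyclin A and cyclin B bind the kinase CDK1. Aurora and Polo-like kinases then build the spindle, kinetochores tie chromosomes to its microtubules, and the spindle checkpoint holds back the anaphase-promoting complex (APC/C) until every chromosome is attached. Most of these genes are transcribed in a wave late in the cycle, through promoters bound by the MuvB complex with B-MYB and FOXM1, and their RNA is low in resting cells. In a tumour their levels are widely used as a sign of how many cells are dividing.

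Promoters of 5 genes are shown first. Ccnb2, Cdk1, Ttk and Ube2c were picked from the 6 genes with a promoter entry that were lower in JAG2KO. Ccnb1 was added because it is the B-type cyclin that did not pass the test. The patterns searched are known from late cell cycle promoters, the CHR element (TTTGAA) and the CCAAT box (CCAAT). All 5 promoters hold CCAAT, and all but that of Ccnb1 hold TTTGAA. Of the lower genes not shown, Aurka holds both patterns, and Anln holds CHR without CCAAT. The sequences are from RefSeq on GRCm38.p6, 5′ to 3′ on the gene's strand, from 110 bases before to 20 bases from the annotated start, with every match to either pattern on either strand in capitals (TTCAAA and ATTGG are the same patterns on the other strand, and the patterns do not overlap each other).
Ccnb2, chr9:70421535-70421664, minus strand: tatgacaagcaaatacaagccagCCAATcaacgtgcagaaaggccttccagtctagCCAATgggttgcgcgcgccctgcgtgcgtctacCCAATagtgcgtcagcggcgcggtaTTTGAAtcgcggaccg
Ccnb1, chr13:100786467-100786596, minus strand: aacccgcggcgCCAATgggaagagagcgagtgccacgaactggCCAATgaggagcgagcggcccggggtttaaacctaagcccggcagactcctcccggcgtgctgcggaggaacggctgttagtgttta
Cdk1, chr10:69352893-69353022, minus strand: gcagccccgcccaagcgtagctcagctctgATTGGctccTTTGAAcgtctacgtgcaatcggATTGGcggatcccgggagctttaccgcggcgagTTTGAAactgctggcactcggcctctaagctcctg
Ttk, chr9:83834579-83834708, plus strand: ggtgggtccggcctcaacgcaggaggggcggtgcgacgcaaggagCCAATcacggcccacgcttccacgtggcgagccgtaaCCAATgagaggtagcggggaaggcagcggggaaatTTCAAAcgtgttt
Ube2c, chr2:164769819-164769948, plus strand: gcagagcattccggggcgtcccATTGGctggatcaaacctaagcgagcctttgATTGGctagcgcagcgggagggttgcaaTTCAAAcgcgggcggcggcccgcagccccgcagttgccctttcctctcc

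In Ccnb2 the 3 CCAAT matches began 87, 54 and 21 bases before the start, 33 bases apart, and a CHR match followed them at 4 bases after the start. Ccnb1 had 2 CCAAT matches 32 bases apart and no TTTGAA in this window, which says only that these letters are not in it. Cdk1 had 2 CCAAT matches 32 bases apart within the stretch shown, and CHR matches beginning 71 and 15 bases before the start. Of the 30 genes, 25 had a promoter entry, in 26 windows of 300 bases (250 before and 50 after the start). CHR was found in 76.9% of those windows against 17.9% of all 32851 promoter windows, CCAAT in 80.8% against 37.4%, and both in 69.2% against 6.95%. Both patterns were present in 5 of the 6 genes with a promoter entry that fell in JAG2KO and in 12 of the 19 that did not pass the test. In the 117 other mitosis and G2 genes described below, 111 windows were found for 100 genes, and 42.3% of them held CHR, 61.3% CCAAT and 31.5% both. A match is a description of the letters and not of binding.

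Depth was similar in all libraries, from 37036772 counts in JagKO2 to 43923565 in Scramble replicate 2, and the JAG2KO libraries are called by their deposited column names because those numbers differ from the sample titles. Each of the 30 genes had between 564 and 20242 counts in every library. Jag2 itself measured 1.52, 1.1 and 1.02 CPM (counts scaled to library totals with TMM factors) in Scramble replicates 1, 2 and 3. In JAG2KO it measured 0.514 CPM in JagKO2, 0.799 in JagKO3 and 1.11 in JagKO4 (log2 fold change -0.58, edgeR adjusted p = 0.318). With this overlap, the RNA level is no check of the guide. Of 9 lung epithelial genes, the defining Nkx2-1 and Sftpb had 0 counts in all libraries, which allows up to 0.0811 CPM (3 counts) in the shallowest. The keratin gene Krt18 lay between 258.6 and 332.2 CPM, and the keratin genes Krt8 and Krt19 were lower in JAG2KO. Ptprc, which encodes the CD45 of the sort, lay between 2.09 and 2.24 CPM in Scramble and between 2.42 and 3.89 CPM in JAG2KO.

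Of the 30 genes, 8 were lower in JAG2KO, 0 were higher and 22 did not pass the test (edgeR quasi-likelihood test, adjusted p under 0.05 over all tested genes). The genes that fell were Ccnb2, Ttk, Anln, Aurka, Ube2c, Aurkb, Foxm1 and Cdk1, with falls that ran from -32.7% for Ccnb2 to -13.8% for Cdk1. The share called lower was 26.7%, where 12.5% of all tested genes were called lower, or 16.6% of the 7389 genes whose mean CPM lay in the range of these genes (18.8 to 442.2). Called higher were 11.8% of all tested genes and 14.4% of those in that range. Before adjustment 11 of the 30 genes were lower and 2 higher at p under 0.05 in edgeR. At that level 2956 of all 16049 tested genes were lower and 2858 higher. Of the 7389 genes in that range, 1775 were lower and 1516 higher. After adjustment, DESeq2 and limma-voom also called 0 of the 30 genes higher. The count of 8 fell to 4 without Scramble replicate 2 and to 5 without JagKO4, and without JagKO2 7 of the 8 were called lower and 2 genes higher (Cenpe and Cenpf). In bulk RNA, fewer cells in G2 and mitosis and less RNA of these genes per cell cannot be told apart.

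The median log2 fold change of the 30 genes was -0.11, against 0.0018 over all tested genes, and 23 of the 30 values were negative. In 14 of the 30 genes the 3 JAG2KO values lay below all 3 Scramble values, and in 0 genes above them. Over all tested genes 20.9% were separated downwards and 19.5% upwards, and in the same range of CPM 26.3% and 21.9%. Summed over the 30 genes, Scramble replicates 1, 2 and 3 held 3271, 3281 and 3227 CPM. JagKO2, JagKO3 and JagKO4 held 2949, 3122 and 3030 CPM, so the sums did not overlap and every JAG2KO library was lower.

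**Figure D1:**
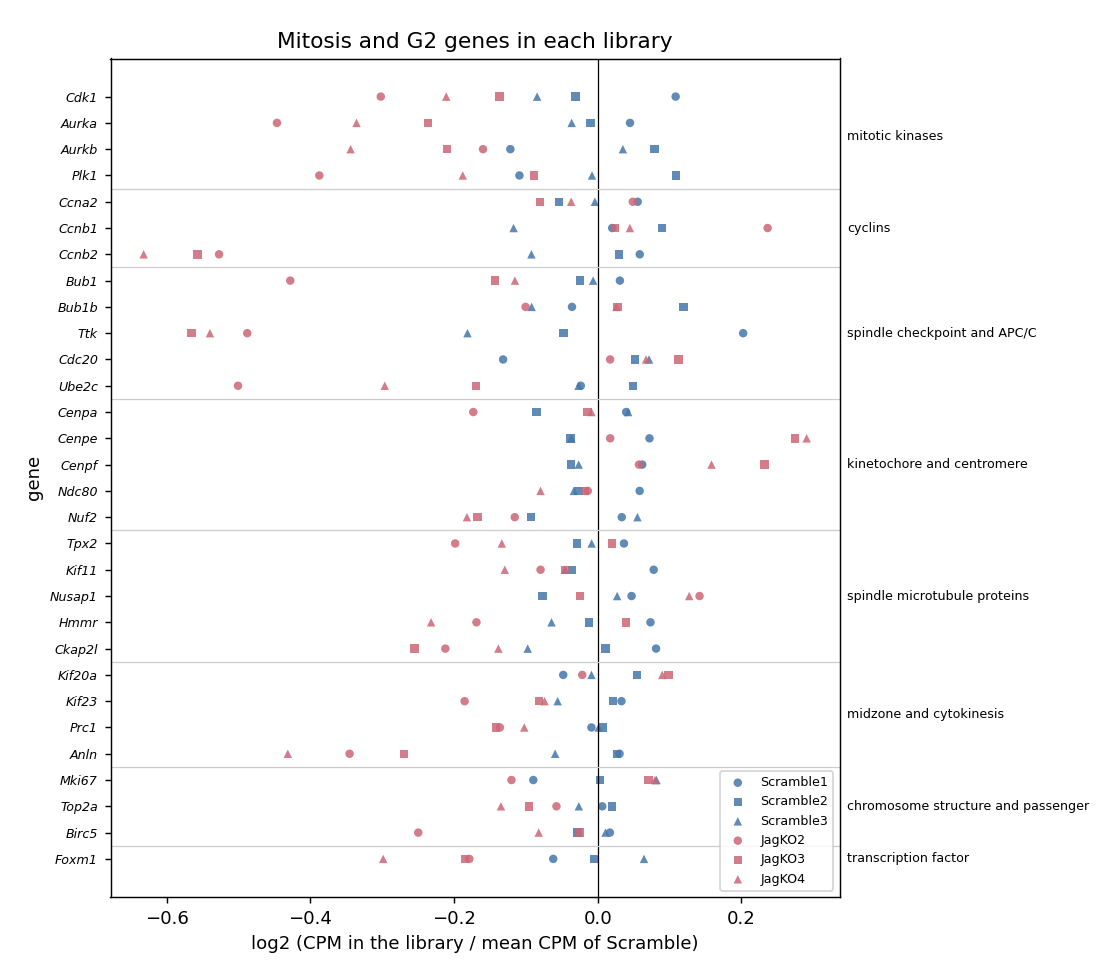
Each point is the CPM of 1 gene in 1 library, as log2 of its ratio to the mean of the 3 Scramble libraries (x axis), with genes on the y axis grouped by role, Scramble in blue and JAG2KO in red. The red points of Ccnb2, Ttk and Anln lie apart on the left, whereas those of Ccna2, Bub1b, Ndc80 and Mki67 lie among the blue points.

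Among the mitotic kinase genes, 3 of 4 fell. Aurka, which encodes the Aurora kinase of the centrosomes and spindle poles, measured 60.4, 58.1 and 57.1 CPM in Scramble replicates 1, 2 and 3 and 42.9, 49.7 and 46.4 CPM in JagKO2, JagKO3 and JagKO4. The groups did not overlap (log2 fold change -0.34, SE 0.08, edgeR adjusted p = 0.00694). Its activator gene Tpx2, which targets Aurora A to spindle microtubules, measured 136, 130.4 and 132 CPM in Scramble and 116, 135 and 121 CPM in JAG2KO. Those groups overlapped through JagKO3, and Tpx2 did not pass the test (log2 fold change -0.10, 95% interval -0.25 to 0.05). The ratio of Aurka to Tpx2 CPM was 0.442, 0.446 and 0.431 in Scramble and 0.370, 0.368 and 0.382 in JAG2KO. This ratio was lower in 3 of 3 JAG2KO libraries (two-sided exact permutation test, p = 0.1, the smallest that 3 against 3 allows); it was chosen after the values were seen, and 4 such ratios were computed, all with p = 0.1 and an adjusted p of 0.1.

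Aurkb, the Aurora kinase of the chromosomal passenger complex, measured 72.5, 83.3 and 80.8 CPM in Scramble and 70.6, 68.2 and 62.2 CPM in JAG2KO. Every JAG2KO value was lower, by a narrow margin at JagKO2 (log2 fold change -0.24, SE 0.08, edgeR adjusted p = 0.0425). Cdk1, the kinase that drives entry into mitosis, measured 116, 106 and 102 CPM in Scramble and 87.5, 98.1 and 93.2 CPM in JAG2KO. All 3 JAG2KO values were lower (log2 fold change -0.22, SE 0.07, edgeR adjusted p = 0.0473). Both calls lay close to the threshold. The call of Aurkb ended when Scramble replicate 2 or 3, JagKO3 or JagKO4 was left out (adjusted p = 0.0688 to 0.182). Cdk1 lost its call under 7 of 12 alternatives, RLE factors and library totals alone among them (adjusted p = 0.0543 to 0.219). Plk1, the Polo-like kinase of centrosome maturation and mitotic exit, measured 63.3, 73.6 and 67.9 CPM in Scramble and 52.2, 64.2 and 60.0 CPM in JAG2KO. JagKO3 overlapped Scramble replicate 1 and Plk1 did not pass the test (log2 fold change -0.22, 95% interval -0.41 to -0.02, edgeR adjusted p = 0.0978).

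Of the 3 cyclin genes 1 fell. Ccnb2, a B-type cyclin, measured 102, 100.2 and 92.1 CPM in Scramble and 68.1, 66.7 and 63.4 CPM in JAG2KO. The groups were well apart, and this was the largest change of the 30 genes (log2 fold change -0.57, SE 0.07, edgeR adjusted p = 9.03e-05). Ccnb1, the other B-type cyclin gene, measured 101, 106 and 91.9 CPM in Scramble and 117, 101 and 103 CPM in JAG2KO. The groups overlapped and the log2 fold change was 0.10 (95% interval -0.06 to 0.27). Ccna2, the A-type cyclin gene of S phase and G2, measured 126, 116 and 120.4 CPM in Scramble and 125, 114 and 118 CPM in JAG2KO. It did not pass the test, with a narrow interval around no change (-0.16 to 0.12 on the log2 scale). Exons of Ccna2 overlap the opposite-strand gene Exosc9, and the sources used here do not say whether counting used strand.

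The ratio of Ccnb2 to Ccnb1 CPM was 1.012, 0.945 and 1.002 in Scramble and 0.580, 0.659 and 0.616 in JAG2KO. On the log2 scale the difference was -0.68 (SD 0.05 in Scramble and 0.09 in JAG2KO, n = 3; two-sided exact permutation test, p = 0.1, the smallest possible). As with Aurka and Tpx2, this was 1 of the 4 ratios chosen after the values were seen, so the lack of overlap is a description only. Against Ccna2 the ratio of Ccnb2 was 0.815, 0.861 and 0.765 in Scramble and 0.545, 0.584 and 0.538 in JAG2KO, again without overlap. These ratios do not depend on how the libraries were scaled. Per kilobase of exon, Ccnb2 stood above Ccnb1 in both groups, with 64.1 ± 3.51 and 23.6 ± 1.7 RPKM (SD, n = 3) in Scramble and 43.2 ± 1.61 and 25.4 ± 2.11 RPKM in JAG2KO. These lengths count every annotated exon of a gene, so a gene with rarely used exons is understated.

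**Figure D2:**
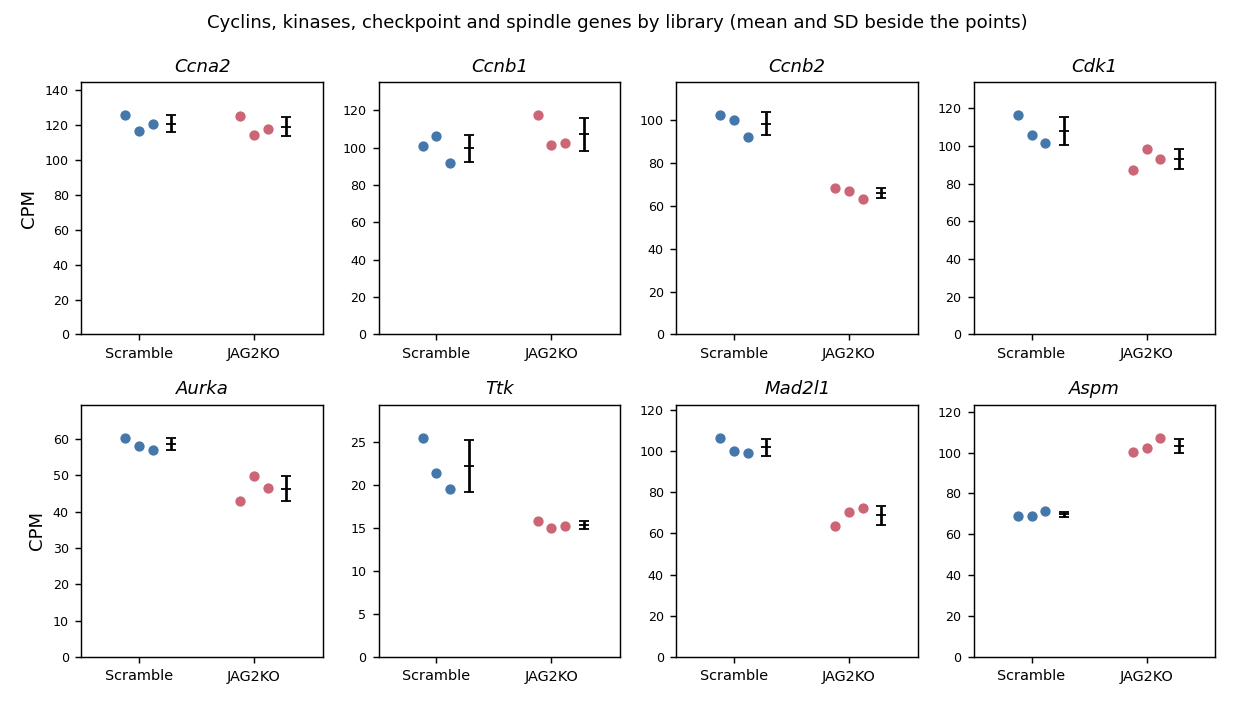
CPM of 8 genes in each library (y axis, from 0), with Scramble in blue, JAG2KO in red and the mean and SD of the 3 libraries in black beside the points. Ccna2 and Ccnb1 overlap between groups, Ccnb2, Cdk1, Aurka, Ttk and Mad2l1 lie lower in every JAG2KO library, and Aspm lies higher.

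Of the spindle checkpoint and APC/C genes, 2 of 5 fell. Ttk encodes the MPS1 kinase, which starts the checkpoint at unattached kinetochores. It had the lowest level of the 30 genes both by CPM and per kilobase (4.52 ± 0.62 RPKM in Scramble and 3.13 ± 0.0861 RPKM in JAG2KO, SD, n = 3). It measured 25.6, 21.5 and 19.6 CPM in Scramble and 15.8, 15.01 and 15.3 CPM in JAG2KO. Scramble varied more than JAG2KO, but the groups did not overlap (log2 fold change -0.53, SE 0.11, edgeR adjusted p = 0.00523). Ube2c, the ubiquitin-conjugating enzyme of the APC/C, measured 108, 114 and 108 CPM in Scramble and 77.8, 97.9 and 89.7 CPM in JAG2KO. All JAG2KO values were lower, JagKO2 most (log2 fold change -0.32, SE 0.08, edgeR adjusted p = 0.0143), and the call ended without Scramble replicate 2 (adjusted p = 0.0653). Exons of Ube2c overlap the opposite-strand gene Tnnc2.

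The checkpoint kinase gene Bub1 measured 86.0, 82.7 and 83.8 CPM in Scramble and 62.6, 76.2 and 77.7 CPM in JAG2KO. All JAG2KO values were lower, but the 3 of them were spread (log2 fold change -0.22, 95% interval -0.40 to -0.04, edgeR adjusted p = 0.0726). Bub1b, whose product BUBR1 is part of the inhibitor of the APC/C, measured 107, 119 and 103 CPM in Scramble and 102, 111 and 111 CPM in JAG2KO, with wide overlap (95% interval -0.17 to 0.14). Cdc20, the APC/C activator that the checkpoint holds, measured 135, 153 and 156 CPM in Scramble and 149.8, 160.1 and 155 CPM in JAG2KO, also with overlap (95% interval -0.08 to 0.22). Per kilobase it was the highest of the 30 genes, with 79.3 ± 6.02 RPKM in Scramble and 83.0 ± 2.74 RPKM in JAG2KO.

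Kinetochore and spindle genes showed small differences in both directions. Among the 5 kinetochore and centromere genes 0 passed the test in edgeR, DESeq2 or limma-voom, and 2 were higher at an unadjusted p under 0.05. These 2 were Cenpe, a kinesin that moves chromosomes to the metaphase plate, and Cenpf, a large protein of the outer kinetochore. Cenpe measured 101, 93.1 and 93.2 CPM in Scramble and 96.8, 116 and 117 CPM in JAG2KO, and Cenpf 123, 115 and 116 CPM in Scramble and 122, 138 and 131 CPM in JAG2KO. In both genes JagKO2 lay among the Scramble values and the other two JAG2KO libraries above them. The log2 fold change of Cenpe was 0.20 (95% interval 0.03 to 0.37, edgeR adjusted p = 0.0884) and that of Cenpf 0.15 (95% interval 0.01 to 0.30, edgeR adjusted p = 0.122). Without JagKO2 both passed the test as higher, Cenpe at 0.28 (edgeR adjusted p = 0.00605) and Cenpf at 0.20 (edgeR adjusted p = 0.0411). Ndc80 and Nuf2, partners in the complex that grips microtubules, had log2 fold changes of -0.04 and -0.15. Nuf2 was lower in every JAG2KO library without passing the test (edgeR adjusted p = 0.142), while Ndc80 overlapped. Cenpa, the histone variant of centromeres, also overlapped (log2 fold change -0.06, 95% interval -0.22 to 0.09).

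Of the 5 spindle microtubule genes 0 passed the test in edgeR, DESeq2 or limma-voom, and 1 was lower at an unadjusted p under 0.05. This was Ckap2l, a spindle microtubule protein, with 39.5, 37.6 and 34.9 CPM in Scramble and 32.2, 31.3 and 33.9 CPM in JAG2KO. Its groups lay apart, if narrowly (log2 fold change -0.20, 95% interval -0.38 to -0.02, edgeR adjusted p = 0.0963). The motor gene Kif11, which pushes spindle poles apart, and the microtubule-binding protein genes Nusap1 and Hmmr had log2 fold changes of -0.08, 0.08 and -0.12, with overlap in all 3. Over the 10 kinetochore and spindle genes above, Tpx2 included, the log2 fold changes ran from -0.20 to 0.20. Whether the role groups differ from each other was not tested.

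Among the 4 genes of the spindle midzone and cytokinesis, 1 fell. Anln, the actin-binding scaffold of the cleavage furrow, measured 275, 275 and 259 CPM in Scramble and 212, 224 and 199.99 CPM in JAG2KO. The lowest Scramble value stood above every JAG2KO value (log2 fold change -0.35, SE 0.06, edgeR adjusted p = 0.00214). The midzone genes Prc1, a microtubule bundler, and Kif23, a kinesin motor, were lower in every JAG2KO library. Prc1 had a mean of 81.4 ± 0.464 CPM in the Scramble libraries and 74.6 ± 1.1 CPM in the JAG2KO libraries, and Kif23 of 108 ± 3.57 and 99.6 ± 4.23 CPM (SD, n = 3), and neither passed the test (edgeR adjusted p = 0.151 and 0.219). Kif20a, a kinesin of the midzone, overlapped between groups (log2 fold change 0.06, 95% interval -0.09 to 0.21). Exons of Prc1 overlap the opposite-strand gene Rccd1, and those of Kif20a overlap Cdc23. Their counts could depend on how reads in the overlap were handled, which the sources used here do not say. Shorter overlaps with opposite-strand genes exist for Cdc20 (Elovl1), Nusap1 (Oip5), Plk1 (Gm44985) and Ckap2l (Gm14024).

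The proliferation markers Mki67, Top2a and Birc5 were among the genes that did not pass the test. Pcna, outside this list, was picked by name from 24 DNA replication genes, of which 10 fell and 14 did not pass the test. It was called lower under all 12 alternatives (log2 fold change -0.28 to -0.24, adjusted p up to 0.0455). Mki67, which encodes the Ki-67 protein that coats mitotic chromosomes, measured 281, 299.6 and 316 CPM in Scramble and 275, 314 and 316 CPM in JAG2KO. The values interleaved, and the log2 fold change was 0.01 (95% interval -0.15 to 0.17). Top2a, the topoisomerase that untangles chromosomes, measured 459, 463 and 449 CPM in Scramble and 439, 428 and 416 CPM in JAG2KO. Each JAG2KO value was lower, but by little (log2 fold change -0.10, 95% interval -0.22 to 0.03, edgeR adjusted p = 0.256). Birc5, the survivin subunit of the chromosomal passenger complex, had a log2 fold change of -0.12 (95% interval -0.27 to 0.04), and JagKO3 overlapped Scramble. Of these 3 genes 0 passed in edgeR, DESeq2 or limma-voom, and 0 had an unadjusted p under 0.05 in edgeR. Foxm1, the transcription factor of late cell cycle genes, measured 87.9, 91.5 and 96.0 CPM in Scramble and 81.1, 80.8 and 74.6 CPM in JAG2KO. The groups lay apart (log2 fold change -0.22, SE 0.07, edgeR adjusted p = 0.0312), and the call ended without any 1 of the Scramble libraries or without JagKO4 (adjusted p = 0.057 to 0.129). Short exon stretches of Foxm1 overlap Tex52 and the gene model Gm44596 on the same strand.

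**Figure D3:**
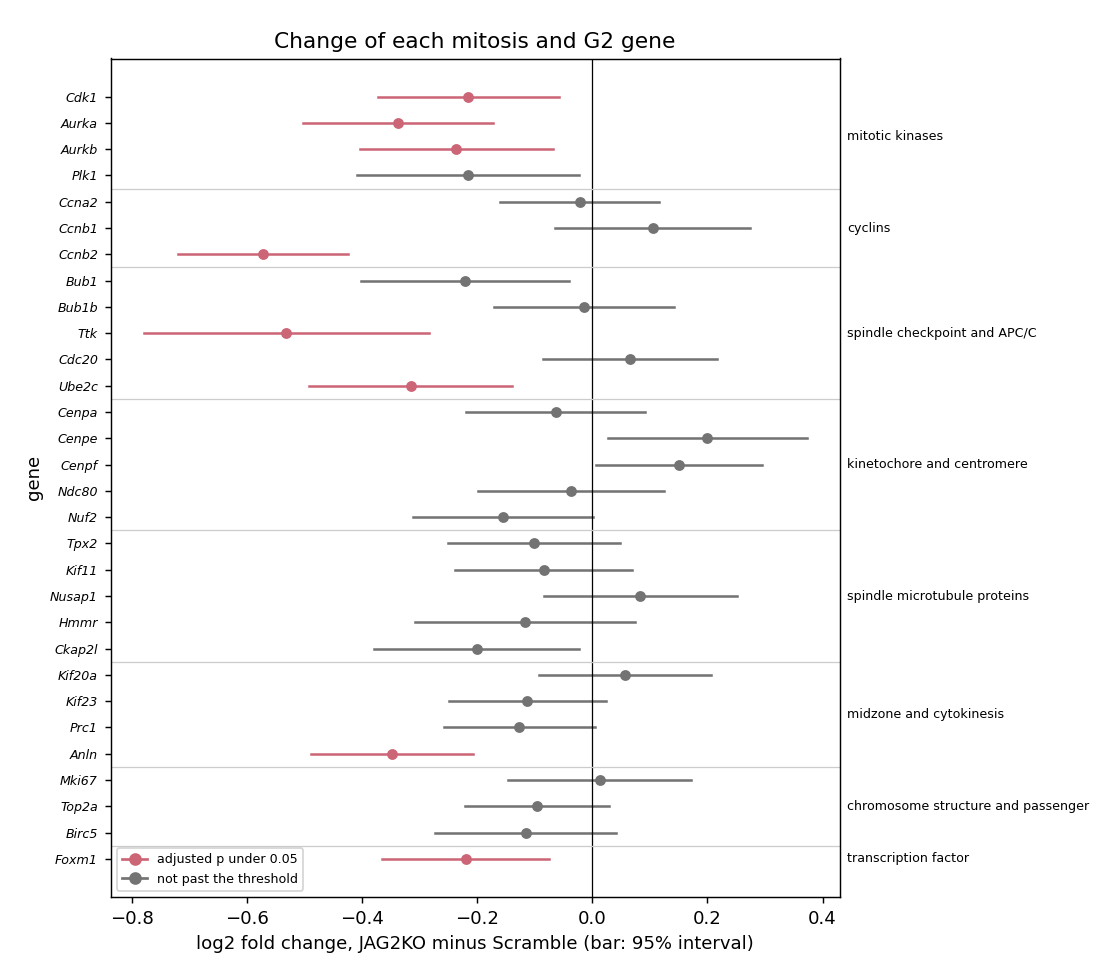
Log2 fold change of each of the 30 genes (x axis, JAG2KO minus Scramble, with the 95% interval as a bar), grouped by role on the y axis, with the 8 genes past the threshold in red. The intervals of Ccnb2 and Ccnb1 do not meet, and those of Mki67, Ccna2 and Bub1b span 0.

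Ccnb2, Ttk, Anln and Aurka kept their calls under all 12 alternatives. The interval bounds of the 22 genes that did not pass reached from -0.41 to 0.37 on the log2 scale. Within JAG2KO, JagKO2 was the lowest library for 15 of the 30 genes, JagKO3 for 6 and JagKO4 for 9. JagKO2 was also the highest of the JAG2KO libraries for 10 genes, JagKO3 for 13 and JagKO4 for 7. Markers of fibroblasts and pericytes summed to 4857 to 4934 CPM in Scramble. They summed to 9767 CPM in JagKO2 and to 6619 and 6190 CPM in JagKO3 and JagKO4, with 6 of 10 markers called higher and 1 lower. Most of each sum was Col3a1, at 3512 to 3750 CPM in Scramble and 7220, 4986 and 4661 CPM in JagKO2, JagKO3 and JagKO4. The marker called lower was Fap (log2 fold change -2.40), and Pdgfra, Dcn and Lum did not pass the test. Of 12 endothelial markers 7 were higher, with sums of 47.1 to 50.8 CPM in Scramble and 68.0 to 92.5 CPM in JAG2KO. Of 12 macrophage markers 4 were higher and 1 lower, with sums of 61.7 to 71.5 CPM in Scramble and 95.5 to 113.8 CPM in JAG2KO. T, NK and B cell markers summed to at most 5.32 CPM and neutrophil markers to at most 3.38 CPM in any library, with Ncr1 and Ly6g at no more than 1 count. The part of these cell types in the fall of the mitotic genes was not tested.

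Each gene was also set beside the 20 nearest tested genes on its chromosome, whose median log2 fold change ran from -0.26 to 0.32 over the 30 genes. Of the 30 genes, 23 lay below the median of their neighbours, and the median difference was -0.16 on the log2 scale. For the 8 genes that fell, which were picked for low values, it was -0.32 and all 8 lay below. Around Ccnb2 (chromosome 9, 70407692 to 70421547) the neighbours' median log2 fold change was 0.10, and around Ttk (chromosome 9, 83834689 to 83872389) it was 0.03. Cdk1 (chromosome 10, 69335146 to 69352938) lay among genes with a median of 0.26, of which 8 were called higher and 2 lower. Anln (chromosome 9, 22332012 to 22389188) lay among genes with a median of -0.26, of which 7 of 20 were called lower, and the difference from that median was -0.09. For Anln a change of its own and a shift of its neighbours cannot be told apart. Cenpe lay in a stretch of chromosome 3 where the neighbours' median was 0.29, above its own value of 0.20.

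**Figure D4:**
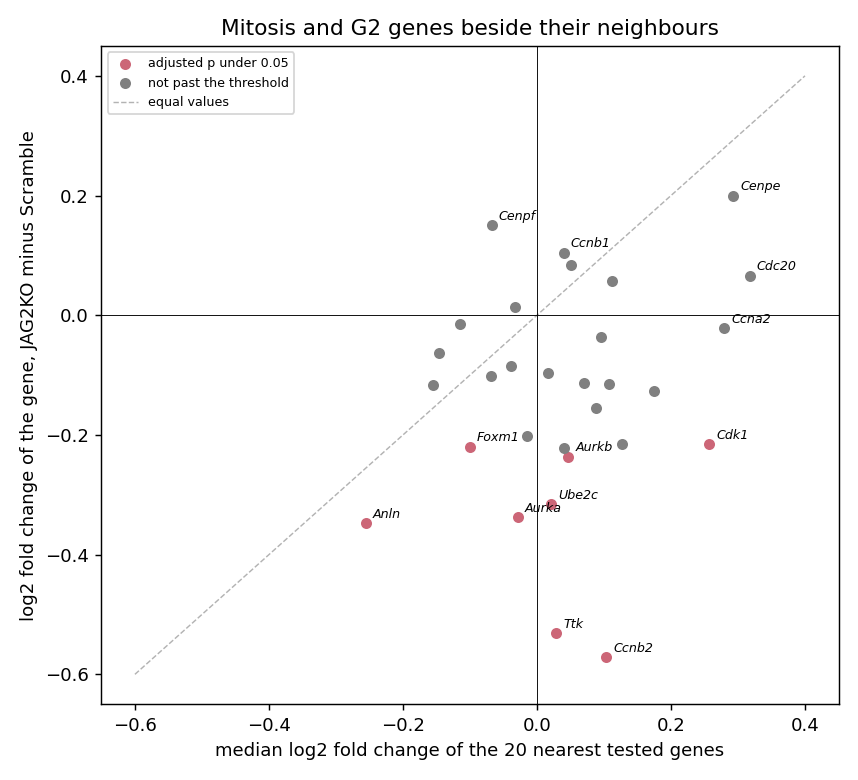
Each point is 1 of the 30 genes, with the median log2 fold change of its 20 nearest tested genes on the x axis and its own log2 fold change on the y axis, and the dashed line marks equal values. The 8 genes past the threshold (red) all lie below the line, Anln closest to it, and Ccnb2 and Ttk far below.

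The wider machinery of G2 and mitosis was followed in 117 other genes, all of which were tested. Of these 6 were higher and 17 lower (14.5% lower, close to the 12.5% of all tested genes), with a median log2 fold change of -0.10. The count of lower genes was 9 without Scramble replicate 1, Scramble replicate 2 or JagKO4, and that of higher genes was 3 without Scramble replicate 3 or JagKO4. Of the other checkpoint and APC/C genes 0 of 22 rose in edgeR, DESeq2 or limma-voom (0 higher at an unadjusted p under 0.05). In edgeR 4 of the 22 fell (18.2%). They included Mad2l1 and Mad1l1, partners at the core of the spindle checkpoint. Mad2l1 measured 107, 99.9 and 99.3 CPM in Scramble and 63.7, 70.6 and 72.3 CPM in JAG2KO, a clear gap (log2 fold change -0.57, SE 0.07, edgeR adjusted p = 0.000128). Mad1l1 had a log2 fold change of -0.34 (edgeR adjusted p = 0.00315), among neighbours with a median of -0.19. Mad2l1bp, whose product takes the checkpoint complex apart, had a log2 fold change of -0.44 (edgeR adjusted p = 0.0374), a call that ended without Scramble replicate 1, Scramble replicate 3, JagKO3 or JagKO4 (adjusted p up to 0.148).

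Of the other kinases and G2 entry genes 0 of 17 rose in edgeR, DESeq2 or limma-voom (0 higher at an unadjusted p under 0.05). In edgeR 3 of the 17 fell (17.65%, against 12.5% of all tested genes). These were the kinase genes Melk and Haspin and the cyclin gene Ccnf, at log2 fold changes in that order of -0.36, -0.44 and -0.33 (in edgeR, adjusted p = 0.00322, 0.0291 and 0.00955). The call of Haspin ended without 4 of the 6 libraries in turn (Scramble replicates 1 and 2, JagKO2 and JagKO3, adjusted p up to 0.144) and that of Ccnf without Scramble replicate 2 (adjusted p = 0.0578). Melk lay among neighbours with a median of -0.34, of which 9 of 20 were called lower. Among the other kinetochore and centromere genes 4 of 34 fell (11.8%, against 12.5% of all tested genes) and 1 rose. Cenpi, of the inner kinetochore, had the largest fall of this list, with a log2 fold change of -0.68 (24.0 ± 0.674 CPM in Scramble and 14.98 ± 2.38 CPM in JAG2KO, SD, n = 3, edgeR adjusted p = 0.0014). The kinetochore genes Zw10 and Spc24 also fell, the former at a log2 fold change of -0.34 (edgeR adjusted p = 0.0147) and the latter at -0.26 (edgeR adjusted p = 0.0238), beside neighbours' medians of -0.23 and -0.21. Spc24 lost its call without any 1 library other than JagKO3 (adjusted p up to 0.118), and Zw10 without Scramble replicate 1 or JagKO4 (adjusted p up to 0.0691). The last 5 of these genes were Incenp and Cdca8, which encode passenger complex subunits, and Cdca2, Cdca3 and Cdca5, which do not. Incenp and Cdca5, the gene of the cohesin regulator sororin, fell, the former at a log2 fold change of -0.25 (edgeR adjusted p = 0.014) and the latter at -0.36 (edgeR adjusted p = 0.0255), and of the 5 genes 0 rose in any of the 3 tools or at an unadjusted p under 0.05. The call of Incenp ended without Scramble replicate 3 (adjusted p = 0.0556) and that of Cdca5 without Scramble replicate 1, Scramble replicate 3, JagKO3 or JagKO4 (adjusted p up to 0.108).

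Of the 6 genes that rose, 4 were among the other spindle motors and microtubule proteins. There 4 of 24 were higher (16.7%) and 2 lower (8.33%), against 11.8% and 12.5% of all tested genes. Aspm, a spindle pole protein gene known for its role in brain size, measured 69.1, 68.9 and 71.2 CPM in Scramble and 100.3, 102 and 107 CPM in JAG2KO. The groups were far apart (log2 fold change 0.57, SE 0.06, edgeR adjusted p = 4.81e-05), with a neighbours' median of 0.16. The kinesin gene Kif15 rose (log2 fold change 0.32) among neighbours with a median of 0.23, and Kif18a, another kinesin gene, fell (log2 fold change -0.44) among neighbours with a median of -0.24 (edgeR adjusted p = 0.00645 for Kif15 and 0.0274 for Kif18a). Kif18a did not pass when Scramble replicate 1 or 2, JagKO2 or JagKO4 was left out (adjusted p up to 0.125). Of the condensin, cohesin and separase genes 1 of 15 rose (6.67%) and 2 fell (13.3%). The condensin gene Ncapd2 rose (log2 fold change 0.25, edgeR adjusted p = 0.00898). Smc2, which encodes a core condensin subunit, and the cohesin gene Smc1a fell, the former at a log2 fold change of -0.34 (edgeR adjusted p = 0.00155) and the latter at -0.24 (edgeR adjusted p = 0.00941), and the median of the neighbours was -0.20 for both. Smc1a did not pass without Scramble replicate 2 (adjusted p = 0.0584). Ncapd2 holds the small RNA gene Scarna10 within its exons.

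**Figure D5:**
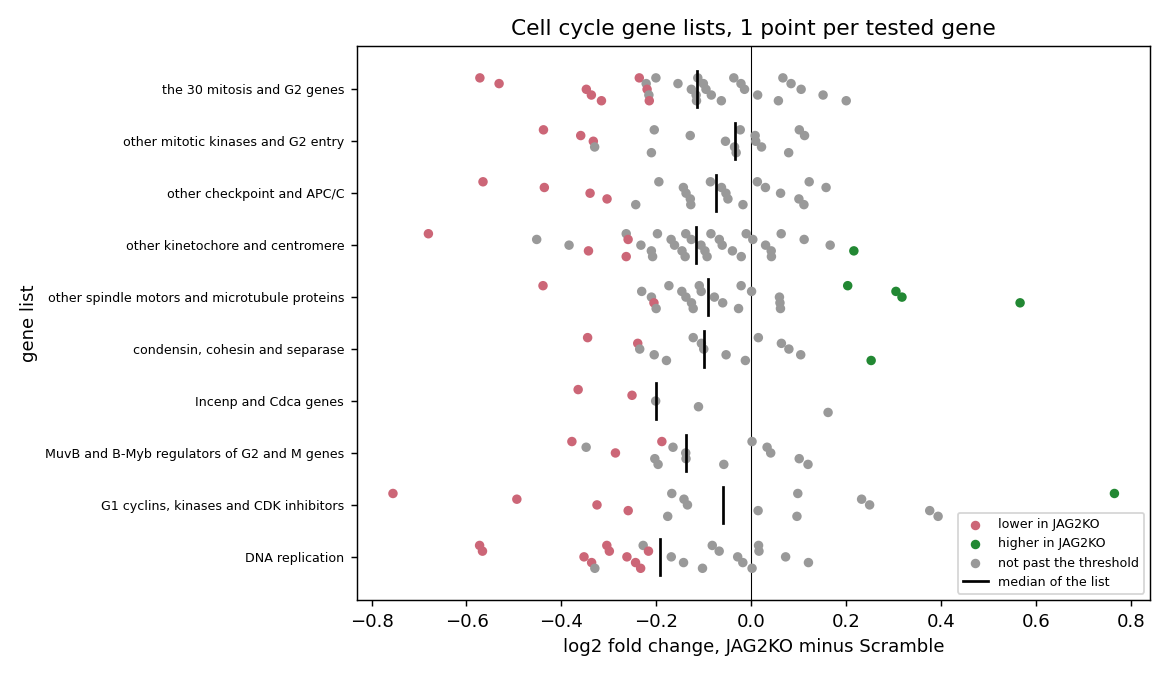
Log2 fold change (x axis, JAG2KO minus Scramble) of every tested gene of each cell cycle list (y axis), with genes called lower in red, called higher in green and the median of a list as a black bar. The medians of all lists lie left of 0, and Aspm (0.57) and Rb1 (0.76) stand out on the right.

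Regulators of these genes and the earlier phases of the cycle were read in the same fit. Of 15 genes of the MuvB complex, its partners and the CCAAT-binding factor NF-Y, 3 fell and 0 rose in edgeR, DESeq2 or limma-voom (0 higher at an unadjusted p under 0.05). E2f4, a repressor partner of that complex, and Nfyb, an NF-Y subunit gene, fell, the former at a log2 fold change of -0.29 (edgeR adjusted p = 0.00365) and the latter at -0.38 (edgeR adjusted p = 0.00882). Mybl2, which encodes B-MYB, averaged 98.9 ± 3.32 CPM over Scramble and 86.7 ± 2.99 CPM over JAG2KO (SD, n = 3). Its call (log2 fold change -0.19, edgeR adjusted p = 0.0456) held under only 1 of 12 alternatives. Of 24 DNA replication genes 10 fell (41.7%, against the same 12.5% and 16.6%), and 6 fell without Scramble replicate 2 or 3. Of these 24 genes 0 rose in edgeR, DESeq2 or limma-voom (0 higher at an unadjusted p under 0.05). The smallest p-values were those of the ribonucleotide reductase gene Rrm2, the uracil glycosylase gene Ung and the licensing factor gene Cdt1 (log2 fold changes -0.57, -0.57 and -0.35).

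Of 19 G1 cyclins, kinases and CDK inhibitors 16 were tested, 1 was higher (6.25%) and 4 lower (25%). Of all tested genes 11.8% were called higher and 12.5% lower. Without JagKO3, 3 were higher and 2 lower, and without JagKO2 3 were higher, while without Scramble replicate 3 or JagKO4 2 were lower and without Scramble replicate 2 2 were higher. The cyclin genes Ccne1, which drives entry into S phase, and Ccnd3 fell, the former at a log2 fold change of -0.75 (edgeR adjusted p = 0.000314) and the latter at -0.33 (edgeR adjusted p = 0.00308). Rb1, the retinoblastoma gene, was the 1 that rose (log2 fold change 0.76, edgeR adjusted p = 0.00125), with a mean of 12.4 ± 1.55 CPM in Scramble and 21.1 ± 2.7 CPM in JAG2KO (SD, n = 3). Its exons overlap the opposite-strand genes Rcbtb2 and Lpar6, so its counts could depend on how reads in the overlap were handled. The CDK inhibitor genes Cdkn1c, Cdkn2a and Cdkn2b did not pass the filter, with at most 27 counts in a library.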

How the data were processed

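RNA of 6 libraries was described by 1 table of raw read counts per gene, which the authors deposited. Per the submitters' processing notes, the tools were STAR 2.7.7a and HTSeq 0.11.2. Their settings, the genome build and the annotation were not given in the sources used here. Symbols were matched by stable ID for 55154 of 55334 IDs, and the others held 0.00193% of counts. Positions and exon lengths came from GENCODE M21 (GRCm38), which need not be the annotation used for counting.

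The test was that of edgeR 4.0.16 in R 4.3.3: filterByExpr (minimum count 10, minimum total 15), TMM factors, the quasi-likelihood F test of the 2 groups over all 16049 genes and Benjamini-Hochberg adjustment. The standard error is the log2 fold change divided by the square root of F, and 95% intervals use the moderated degrees of freedom, without adjustment for the number of genes. RPKM are CPM per kilobase of exon. Libraries of 1 group differed from each other beyond sampling noise (chi-square divided by its degrees of freedom, 12.2 to 31), so none was counted as the same library deposited again. This does not tell separate tumours from repeat preparations of 1 tumour. Alternatives were RLE factors, library totals alone, 2 other filters, DESeq2 1.42.0, limma-voom (limma 3.58.1) and each library left out. The scripts were tested on simulated data. All 30 genes are reported. Other lists give up to 3 called genes with the smallest p, and Pcna was named in addition. The members and lists were chosen with earlier results of these data known.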

Additional observations from a re-analysis of the deposited data

How the results depend on the processing

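Of the 30 genes, 7 to 9 were called lower with other scaling, filters or tools. Leaving out each library in turn gave 4 to 7 called lower and 0 to 2 called higher, and without a low-count filter 1 gene (Cenpe) was called higher. In the 117 other mitosis and G2 genes, leaving out a library gave 9 to 15 lower and 3 to 5 higher. For DNA replication it gave 6 to 9 lower (6 without Scramble replicate 2 or 3). For the G1 list it gave 2 to 4 lower (2 without Scramble replicate 3, JagKO3 or JagKO4) and 1 to 3 higher (3 without JagKO2 or JagKO3, 2 without Scramble replicate 2). The G1 list had 6 genes called higher without a filter and 3 with DESeq2, where 19 genes entered the test. Over the 30 genes and 12 alternatives, 16 results lost a call, 4 gained one and 0 called results turned direction. Among genes without a call, the sign changed for Mki67 under 3 alternatives, Bub1b and Ccna2 under 2 each and Ndc80 under 1. Their log2 fold changes ran from -0.06 (Bub1b) to 0.08 (Mki67). The members' median log2 fold change stayed between -0.14 and -0.08. No paired analysis was possible because the JAG2KO columns are numbered 2 to 4 and cannot be tied to the sample titles, which run from 1 to 3. The cause of these shifts was not tested. With 3 libraries a group, the smallest change called among the 30 genes was a log2 fold change of -0.22 (Cdk1).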
